A study of Mus musculus with 6 samples.

Results

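The genes examined were 10 genes of prostaglandin synthesis, reception and breakdown, found by symbol among the 55536 genes counted in cultured mouse satellite cells, the muscle stem cells. They were Pla2g4a, Ptgs1, Ptgs2, Ptges, Ptges2, Ptgis, Ptger1, Ptger2, Ptger4 and Hpgd. They were listed by symbol and role in the pathway, and chosen by a rule written with their log2 fold changes between genotypes already known, so the differences of these genes between genotypes are given as a description, with no test. RNA-seq was performed on 6 samples, of which 3 were controls with the genotype Pax7CreErt2;Hira fl/+ and 3 were conditional knockouts (cKO) with the genotype Pax7CreErt2;Hira fl/fl, all C57BL/6J, from adult male mice on a tamoxifen diet whose muscles were injured with BaCl2. The sample labels call the controls WT, and the genotype used here is the one the study's methods give. The Cre is driven from the Pax7 locus, so deletion is limited to Pax7-expressing cells and their progeny, and the controls carry both the Cre and a floxed Hira allele. Cells gated as CD34+ ITGA7+ CD45- TER119- SCA1- were sorted 5 days post-injury and grown for 48 h at low density in high serum with bFGF. Neither labels nor methods say that each sample came from a separate mouse, so the errors below measure the spread between these samples.

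Prostaglandins are lipid signals made from arachidonic acid, which phospholipase A2 frees from membranes. Cyclooxygenases convert it to prostaglandin H2, and terminal synthases turn that into PGE2, prostacyclin and other prostanoids, which act on G protein-coupled receptors close to where they were made. In injured muscle PGE2 is known to promote satellite cell expansion through its EP4 receptor.

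The RNA of the phospholipase, of both cyclooxygenases and of the inducible PGE2 synthase was higher in cKO, whereas that of the more abundant PGE2 synthases, of prostacyclin synthase and of the EP4 receptor was not. Ptgs2, the inducible cyclooxygenase COX-2, stood at 2.52 times its control level, Pla2g4a, the cytosolic phospholipase A2, at 2.25 times and Ptges, the inducible PGE2 synthase mPGES-1, at 2.12 times. Ptgs1, the constitutive cyclooxygenase COX-1, stood at 1.25 times. Ptger4, which encodes EP4, stood at 0.960 of its control level and Ptgis at 0.934. The other PGE2 synthases, Ptges2 and Ptges3, stood at 0.927 and 0.948. The summed level of 20 macrophage markers was also higher in cKO, at 343 to 395 CPM (counts per 1000000) against 171 to 177 CPM in control, and its part in these differences was not tested. In bulk RNA, fewer cells of a type cannot be told apart from less RNA per cell.

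The start regions of Ptgs2, Pla2g4a and Ptges are printed because these genes had the largest differences of the list. Each is 300 bases of GRCm38.p6 from RefSeq, 250 before and 50 from the transcript start onwards, read 5′ to 3′ on the strand of the gene. Capitals mark a TATA box (TATAAA), a cAMP response element core (TGACG) or a GC box (GGGCGG), searched on both strands.
Ptgs2: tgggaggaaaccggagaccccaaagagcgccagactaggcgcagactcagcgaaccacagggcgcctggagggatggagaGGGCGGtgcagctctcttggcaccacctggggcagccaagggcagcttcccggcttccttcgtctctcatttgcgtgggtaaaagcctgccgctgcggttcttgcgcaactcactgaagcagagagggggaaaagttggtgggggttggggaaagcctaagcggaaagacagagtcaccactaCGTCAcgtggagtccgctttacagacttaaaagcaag
Pla2g4a: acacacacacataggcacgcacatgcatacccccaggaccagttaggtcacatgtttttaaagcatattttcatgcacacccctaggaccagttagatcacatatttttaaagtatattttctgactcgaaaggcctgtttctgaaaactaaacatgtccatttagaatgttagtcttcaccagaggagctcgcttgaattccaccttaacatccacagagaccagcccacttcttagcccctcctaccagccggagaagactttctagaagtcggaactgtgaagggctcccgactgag
Ptges: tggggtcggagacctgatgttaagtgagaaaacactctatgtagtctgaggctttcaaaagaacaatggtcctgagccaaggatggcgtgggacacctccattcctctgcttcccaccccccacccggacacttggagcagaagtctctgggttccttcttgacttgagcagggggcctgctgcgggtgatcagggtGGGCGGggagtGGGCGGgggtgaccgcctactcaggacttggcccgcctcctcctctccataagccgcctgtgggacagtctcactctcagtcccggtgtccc
They lie at chr1:150099781-150100080 on the plus strand (Ptgs2), chr1:149961241-149961540 on the minus strand (Pla2g4a) and chr2:30903248-30903547 on the minus strand (Ptges). RefSeq windows were found for 8 of the 10 genes, not for Ptgis and Ptger1, and Pla2g4a has a second window at an inner start. The Ptgs2 window held 1 cAMP response element core, at bases 264 to 268 on the opposite strand, and 1 GC box. The Ptges window held 2 GC boxes, and the window printed for Pla2g4a held none of the motifs searched. Of 32817 windows of this length in the table, 13.6% held the TATA box letters, 20.8% the cAMP response element core and 35.6% the GC box. CCAAT (37.4% of windows), the AP-1 letters TGANTCA (7.81%) and the MyoD-type E-box CAGCTG (16.3%) were also searched, and none of them was in these 3 windows.

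The libraries held 47944477 to 63323577 counts. Hira itself had 375, 348 and 341 counts in control against 161, 293 and 272 in cKO, a log2 fold change (log2FC, cKO minus control) of -0.43 (standard error, SE, 0.12, adjusted p = 0.0237 from the edgeR quasi-likelihood fit). Without control replicate 1 its adjusted p was 0.104. Of its exonic bases, 44.7% overlap another gene on the same strand. In cKO satellite cells the paper reports a larger fall of Hira RNA by RT-qPCR, and no HIRA protein by immunostaining. Counts over the whole gene do not separate the deleted exons from the others, and the reason for the smaller difference was not tested. Of the 22404 genes tested, 15.8% were called at an adjusted p under 0.05, 9.38% up and 6.46% down in cKO. Upregulated genes were 59.2% of the calls, or 70.0% when libraries were scaled by total counts alone. Of the satellite cell and myoblast markers, Des and Myog were the most abundant, with averages of 3228 and 2131 CPM in control and 2903 and 1861 CPM in cKO. Pax7, the defining factor of satellite cells, averaged 39.7 and 34.8 CPM, and Msc (22 to 31 counts per sample) and Chodl (5 to 12 counts) were near absent. Des is also made by smooth muscle, and the smooth muscle marker Acta2 averaged 2956 and 3155 CPM. Acta2 alone made up most of the summed smooth muscle and pericyte list (3347 to 3401 CPM in control), so it does not stand for the other markers. CPM are counts per 1000000 counts of the TMM-scaled library.

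The order of the genes by level was read per length, as CPM per kilobase of annotated exon. In control Ptgs2 was highest at 30.6 ± 0.785 (SD, n = 3), followed by Ptgis at 16.2 ± 0.689 and Ptger4 at 6.18 ± 0.289. Ptges2 (3.65), Ptgs1 (2.23), Pla2g4a (1.57), Ptges (0.805) and Hpgd (0.343) came next, with Ptger1 (0.0533) and Ptger2 (0.0159) at the end. No neighbours in this order overlapped over the control samples. In cKO the order was the same except that Pla2g4a, at 3.55 ± 0.0762 per kilobase, passed Ptgs1 and Ptges2. Its values overlapped those of Ptges2 (3.39 ± 0.157), and no other neighbours overlapped. Ptgs2 made up 49.6% ± 1.07 of the summed per-length level of the 10 genes in control and 69.9% ± 2.46 in cKO (SD, n = 3 each).

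**Figure D1:**
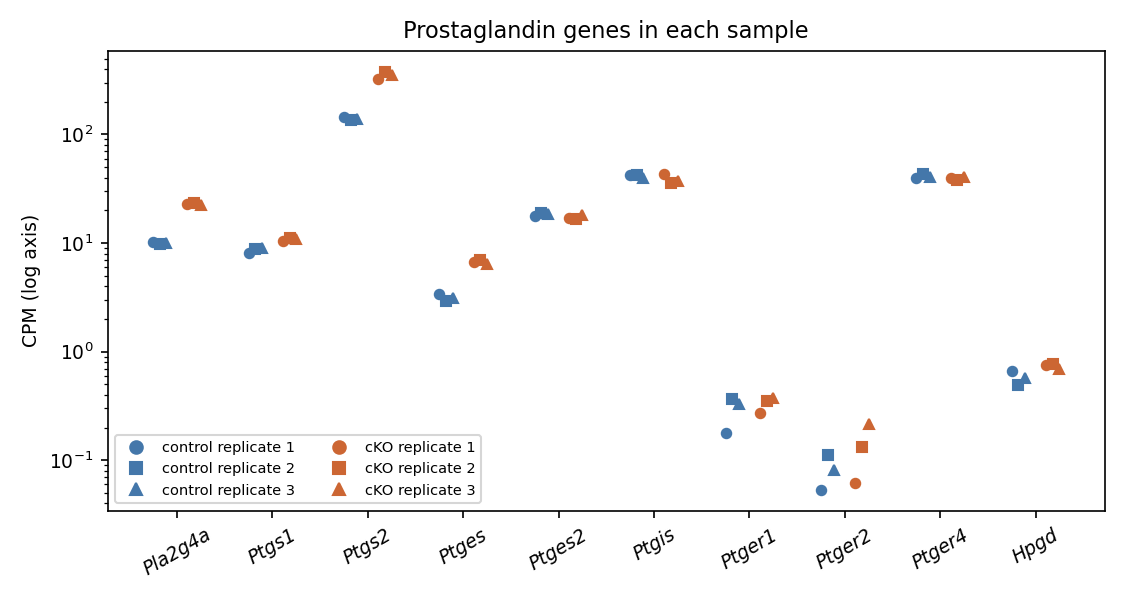
CPM (log axis) of the 10 prostaglandin genes in each of the 3 control (blue) and 3 cKO (orange) samples, with the marker shape giving the replicate number. The cKO points lie above every control point for Pla2g4a, Ptgs1, Ptgs2, Ptges and Hpgd and are mixed with them for the other genes.

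Pla2g4a (ENSMUSG00000056220, chromosome 1 of mm10, 149829618 to 149961290) supplies the arachidonic acid. It had 10.2, 9.86 and 10.1 CPM in control replicates 1, 2 and 3, and 22.7, 23.2 and 22.2 CPM in the cKO replicates. The cKO samples were all above the control samples, and the values within a genotype were close to each other. Its log2FC was 1.17 (SE 0.05, 95% interval 1.07 to 1.28). Its coefficient of variation was 1.84% in control and 2.15% in cKO, below the 4.08% and 2.84% that counting error alone gives at its depth.

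Both cyclooxygenases were detected, and the inducible form held most of their RNA. Ptgs2 (ENSMUSG00000032487, chromosome 1, 150100031 to 150108227) had 8065, 8586 and 8491 counts in control against 15691, 22784 and 19763 in cKO, which is 144, 137 and 139.6 CPM against 326, 379 and 353 CPM. All cKO samples were high, cKO replicate 2 highest, and the control samples lay within a narrow range. Its log2FC was 1.33 (SE 0.05, 95% interval 1.23 to 1.43). Among the 643 tested genes with a mean level at least as high as that of Ptgs2, none had a larger log2 fold change, while over all 22404 genes it ranked 132 from the top. That mean level, 246 CPM, is over all 6 samples and so includes the higher cKO values. Ptgs2 was listed with its difference known, so nothing is read from these ranks.
Ptgs1 (ENSMUSG00000047250, chromosome 2, 36230426 to 36252272) had 8.14, 8.82 and 8.99 CPM in control and 10.5, 11.1 and 10.9 CPM in cKO. The groups did not overlap, but the difference was small, with a log2FC of 0.33 (SE 0.06, 95% interval 0.19 to 0.46). The ratio of Ptgs2 to Ptgs1 per length was 15.0, 13.1 and 13.2 in the control samples and 26.3, 29.0 and 27.3 in the cKO samples. It was thus higher in every cKO sample than in any control sample.

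The terminal synthases differed among themselves. Ptges (ENSMUSG00000050737, chromosome 2, 30889471 to 30929863) encodes mPGES-1, which is induced together with COX-2 in many cells. It had 191, 185 and 191 counts in control against 323, 420 and 358 in cKO, or 3.41, 2.95 and 3.14 CPM against 6.70, 6.99 and 6.39 CPM. All cKO samples were higher, and the log2 fold change was 1.08 (SE 0.08, 95% interval 0.90 to 1.26).
Ptges2 (ENSMUSG00000026820, chromosome 2, 32395896 to 32405772) encodes the constitutive synthase mPGES-2. It had 17.9, 18.9 and 18.6 CPM in control and 16.9, 16.5 and 18.0 CPM in cKO. The groups overlapped, with a log2FC of -0.11 (95% interval -0.22 to -0.0023). The ratio of Ptges to Ptges2 per length was 0.221 ± 0.0223 in control and 0.504 ± 0.0448 in cKO (SD, n = 3 each), so Ptges2 remained the more abundant synthase in both genotypes.
Ptgis (ENSMUSG00000017969, chromosome 2, 167191805 to 167240604) encodes prostacyclin synthase, which acts on the same substrate. Its values were 42.6, 42.6 and 39.5 CPM in control and 43.2, 36.0 and 37.6 CPM in cKO. Replicate 1 of cKO was the highest of all samples and the other cKO samples were the lowest. Its log2FC was -0.10 (SE 0.06, 95% interval -0.22 to 0.02), and without cKO replicate 1 it was -0.18.

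**Figure D2:**
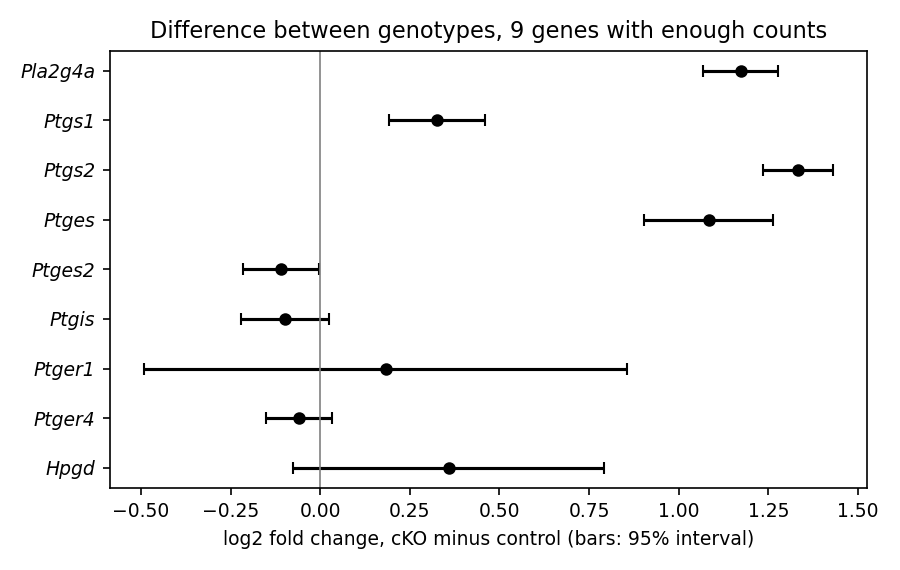
Log2 fold change (cKO minus control, horizontal axis) of the 9 genes with enough counts to be fitted, with bars for the 95% interval from edgeR's fit. Ptgs2 (1.33), Pla2g4a (1.17) and Ptges (1.08) lie apart from Ptgs1 (0.33), while the intervals of Ptgis, Ptger1, Ptger4 and Hpgd span 0.

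Of the PGE2 receptors, EP4 had by far the most RNA in these cultures. Ptger4 (ENSMUSG00000039942, chromosome 15, 5206661 to 5244187) had 39.6, 43.2 and 40.4 CPM in control and 39.6, 38.2 and 40.5 CPM in cKO. The groups overlapped, and the log2 fold change was -0.06 (SE 0.04, 95% interval -0.15 to 0.03). Of its exonic bases, 16.5% lie opposite exons of Gm15937 and Ttc33 on the other strand.
Ptger2 (ENSMUSG00000037759, chromosome 14, 44988195 to 45003820), which encodes the other receptor that raises cAMP, EP2, had 3, 7 and 5 counts in control against 3, 8 and 12 in cKO. These were too few for it to pass edgeR's filter on low counts, and no difference could be measured at this depth.
Ptger1 (ENSMUSG00000019464, chromosome 8, 83666678 to 83672753), which encodes EP1, a receptor coupled to calcium, had 10, 23 and 20 counts in control against 13, 21 and 21 in cKO. Its log2 fold change of 0.18 had a 95% interval of -0.49 to 0.85, so a difference in either direction was not detectable, and without control replicate 1 it was -0.06. The strand setting of the counting is not given in the sources used here, so its counts are uncertain.

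Hpgd (ENSMUSG00000031613, chromosome 8, 56294585 to 56321043) encodes 15-hydroxyprostaglandin dehydrogenase, the enzyme that begins PGE2 breakdown. It was scarce, with 37, 31 and 35 counts in control against 36, 46 and 39 in cKO, or 0.660, 0.494 and 0.575 CPM against 0.747, 0.766 and 0.697 CPM. The cKO samples were all above the control samples, but the log2 fold change of 0.36 had a standard error of 0.20 and a 95% interval of -0.08 to 0.79. The ratio of Pla2g4a to Hpgd per length was 4.65 ± 0.591 in control and 8.11 ± 0.240 in cKO (SD, n = 3 each).

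Of the 10 genes 9 were fitted, 4 passed an adjusted p of 0.05 upwards in the edgeR quasi-likelihood fit (Pla2g4a, Ptgs1, Ptgs2 and Ptges) and 0 downwards, against 9.38% and 6.46% of all genes tested. Every cKO sample was above every control sample for 5 of the 10, a pattern that 16.8% of all tested genes had. Since the genes were listed with this contrast known, nothing is read from these counts. At an unadjusted p under 0.05 the downward count was 1, Ptges2, and DESeq2 gave 0 at its adjusted threshold. Without cKO replicate 1 Ptgis passed as the single downward call.

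The Ptgs2 and Pla2g4a genes are neighbours, 138.7 kb apart on chromosome 1, a position that the listing did not use. The other tested genes between them and within 1 Mb on either side were therefore examined, after the values of both had been seen. They numbered 13, of which 2 were upregulated and 0 downregulated in the edgeR quasi-likelihood fit, and their median log2 fold change was -0.016 against -0.001 over all genes tested. At an unadjusted p under 0.05 the counts were 3 up, among them the processed pseudogene Gm9687, and 1 down, the processed pseudogene Gm4322. In DESeq2 the counts were 2 and 0. Gm29022, Gm5703, Gm15443, Rbm3-ps and Ska2l-ps are processed pseudogenes too, and the median includes them all. The multimapping setting of the counting is not given in the sources used here, so their counts are uncertain. The protein-coding ones, Odr4, Tpr, Prg4 and Hmcn1, had log2 fold changes between -0.04 and 0.18.
The upregulated genes were the non-coding genes that carry the name of Ptgs2. Ptgs2os (chromosome 1, 150074873 to 150099963, minus strand) starts 67 bases before Ptgs2 on the opposite strand and is transcribed away from it. It had 53, 58 and 62 counts in control against 125, 194 and 133 in cKO. All cKO samples were higher, with a log2FC of 1.51 (SE 0.15, adjusted p = 3.94e-06 from edgeR).
Ptgs2os2 (chromosome 1, 150159043 to 150164948, minus strand) lies 50.8 kb beyond the end of Ptgs2. It had 56, 87 and 90 counts in control against 201, 230 and 218 in cKO, again without overlap, with a log2FC of 1.61 (SE 0.13, adjusted p = 4.45e-07 from edgeR). Neither shares exonic bases with Ptgs2. Between Ptgs2 and Pla2g4a 1 tested gene is annotated, Ptgs2os.

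**Figure D3:**
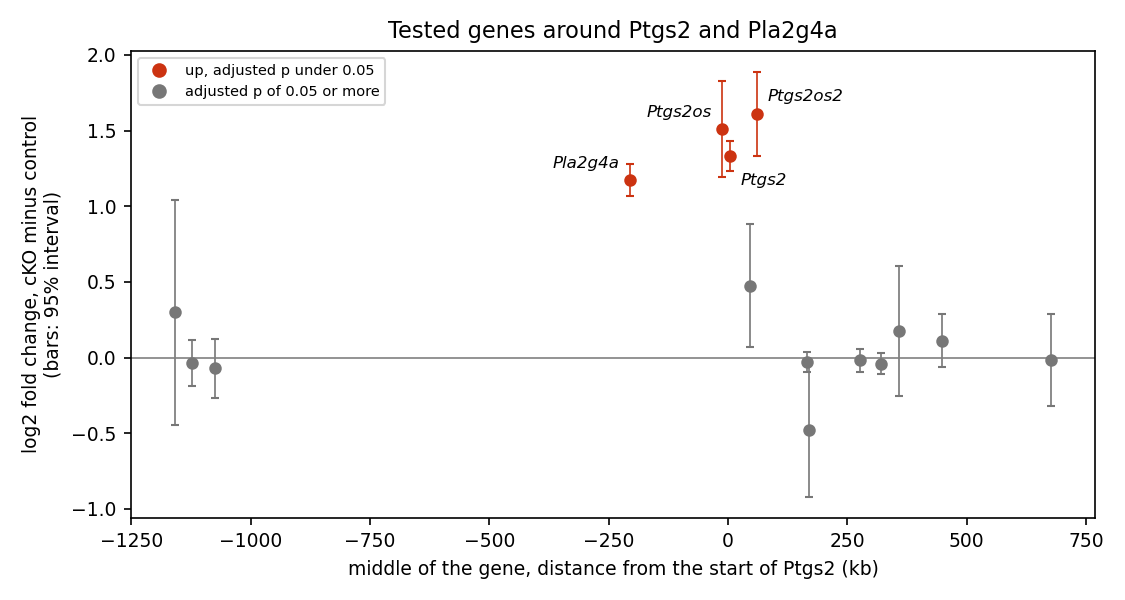
Log2 fold change (cKO minus control, vertical axis, bars for the 95% interval) of tested genes around Pla2g4a and Ptgs2 against the distance of the middle of each gene from the start of Ptgs2 in kb. Pla2g4a, Ptgs2os, Ptgs2 and Ptgs2os2 lie between 1.17 and 1.61, and the other 11 genes did not pass an adjusted p of 0.05.

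The other genes of the pathway were taken from 7 lists of 104 genes in all, of which 79 had enough counts to be tested. In the edgeR quasi-likelihood fit 18 were upregulated and 8 downregulated, or 32.9% of those tested against 15.8% of all genes. The lists were chosen with earlier results of these data known, so these shares are a description and nothing is read from them. The same holds for the numbers of calls in each list below. The median log2 fold change of the tested pathway genes was 0.08, against -0.001 over all genes tested.

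**Figure D4:**
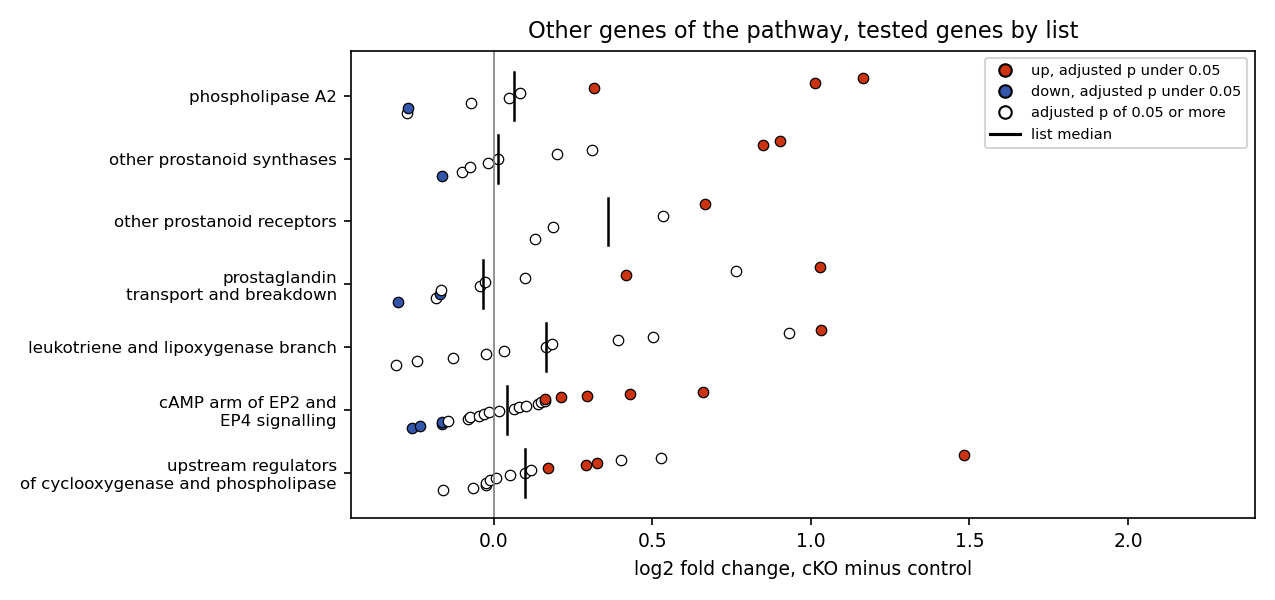
Log2 fold change (cKO minus control) of the 79 tested genes of the 7 pathway lists, 1 point per gene, filled red for upregulated and blue for downregulated at an adjusted p under 0.05, with a bar at each list's median. The list medians lie between -0.035 and 0.36, and every list except that of prostaglandin transport and breakdown has a median above 0.

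Of the other phospholipases A2, 8 of 20 were tested, 3 were upregulated and 1 was downregulated. Pla2g7, a secreted enzyme that degrades platelet-activating factor, rose from 2.13 ± 0.137 to 4.80 ± 0.783 CPM (SD, n = 3 each), or 1.17 as log2FC (SE 0.12, adjusted p = 6.32e-06 from edgeR). Pla2g15, a lysosomal phospholipase, had a log2FC of 0.32 (adjusted p = 0.012), which lost the call without control replicate 2 (adjusted p = 0.0592) or cKO replicate 3 (0.0816). Pla2g2e, a secreted form with 13 to 43 counts per sample, had a log2FC of 1.01 (adjusted p = 0.0168), and its adjusted p was 0.079, 0.0786 and 0.0715 without control replicate 1, control replicate 2 and cKO replicate 2, and 0.0666 with DESeq2. Pla2g16, the tested form with the highest CPM, fell from 21.8 ± 0.620 to 18.1 ± 0.542 CPM, or -0.27 as log2FC (adjusted p = 0.000748).

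Of the other prostanoid synthases 9 of 10 were tested, with 2 upregulated and 1 downregulated. Hpgds, which makes prostaglandin D2, rose from 1.92 ± 0.265 to 3.59 ± 0.199 CPM, or 0.90 as log2FC (SE 0.12, adjusted p = 5.82e-05 from edgeR). Tbxas1, which makes thromboxane, had a log2FC of 0.85 (SE 0.18, adjusted p = 0.00438). Both were far below Ptgs2 in level. Akr1b3, an aldose reductase that can also make prostaglandin F2alpha, had a log2FC of -0.16 (adjusted p = 0.022), and its adjusted p was between 0.0557 and 0.113 when control replicate 1, control replicate 2, cKO replicate 2 or cKO replicate 3 was left out. Ptges3, the cytosolic PGE2 synthase and HSP90 co-chaperone p23, was the most abundant of the list, with 231 ± 7.63 CPM in control and 219 ± 5.06 CPM in cKO, and did not pass the test (log2 fold change -0.08, adjusted p = 0.143). Ptgds had 22 to 32 counts per sample and did not pass either (log2 fold change 0.31, adjusted p = 0.454).

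Of 6 other prostanoid receptors 4 had enough counts, and 1 was upregulated. Ptgir, the prostacyclin receptor, had 309, 364 and 341 counts in control against 430, 536 and 503 in cKO. It rose from 5.64 ± 0.145 to 8.94 ± 0.0359 CPM (SD, n = 3 each), with no overlap and a log2FC of 0.66 (SE 0.06, adjusted p = 3.22e-06 from edgeR). The prostaglandin F receptor Ptgfr (4 to 17 counts per sample, adjusted p = 0.477) and the thromboxane receptor Tbxa2r (7 to 27 counts, adjusted p = 0.81) did not pass, and Ptger3, which encodes EP3, had at most 4 counts in any sample.

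Genes of transport and breakdown went both ways, with 2 of 10 tested genes upregulated and 2 downregulated. Slco2a1, the transporter that takes prostaglandins up into cells, rose from 7.22 ± 0.393 to 14.7 ± 1.95 CPM, or 1.03 as log2FC (SE 0.09, adjusted p = 5.98e-07 from edgeR). Abcc4, an exporter of prostaglandins and cyclic nucleotides, rose from 14.3 ± 0.216 to 19.1 ± 0.220 CPM, or 0.42 as log2FC (SE 0.05, adjusted p = 1.47e-05). Ptgr1, a reductase acting on prostaglandins and leukotrienes, fell from 39.9 ± 1.17 to 32.4 ± 1.91 CPM, or -0.30 as log2FC (adjusted p = 0.000244). Slco3a1, an organic anion transporter, had the highest CPM of the list, though Ptgr1 was higher per length. The log2FC of Slco3a1 was -0.17 (adjusted p = 0.0124 from edgeR), with an adjusted p of 0.0777 without control replicate 1.

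In the leukotriene and lipoxygenase branch, the other route from arachidonic acid, 1 of 11 tested genes was upregulated, a share of 9.09%. It was Alox5ap, the partner protein of 5-lipoxygenase, with 16, 27 and 35 counts in control against 43, 56 and 47 in cKO (log2 fold change 1.03, standard error 0.24, adjusted p = 0.00684 from edgeR). Alox5, 5-lipoxygenase itself, averaged 64.0 CPM in the controls against 63.0 CPM in cKO (n = 3 each) and did not pass (log2 fold change -0.02, adjusted p = 0.727). Dpep1, a dipeptidase of leukotriene conversion and the most abundant of the list, did not pass with all samples (log2 fold change -0.13, adjusted p = 0.106) but did without cKO replicate 1 (-0.19, adjusted p = 0.00301).

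The cAMP arm of EP2 and EP4 signalling showed changes in both directions, with log2 fold changes between -0.26 and 0.66. All 22 genes were tested, 5 were upregulated and 4 downregulated. Nr4a1, an orphan nuclear receptor induced by cAMP, rose from 8.98 ± 0.629 to 12.1 ± 0.413 CPM, or 0.43 as log2FC (SE 0.06, adjusted p = 0.00025 from edgeR). Its relatives Nr4a2 (log2 fold change 0.14, adjusted p = 0.283) and Nr4a3 (0.08, adjusted p = 0.826) did not pass. The adenylyl cyclase Adcy6 rose by 0.29 on the log2 scale (adjusted p = 1.62e-05), while the phosphodiesterase Pde4d had a log2FC of -0.26 (adjusted p = 0.000494). Adcy4 (0.66, adjusted p = 0.0146) had an adjusted p of 0.0644, 0.0706 and 0.0799 without control replicate 1, control replicate 2 and cKO replicate 2. Adcy2 (-0.23, adjusted p = 0.0419) had one between 0.0879 and 0.176 when control replicate 2, control replicate 3, cKO replicate 1 or cKO replicate 3 was left out, and 0.0592 with DESeq2. Prkar1a, a regulatory subunit of protein kinase A and the most abundant of the list, did not pass (-0.08, adjusted p = 0.212), though it did without cKO replicate 1 (-0.12, adjusted p = 0.00473).

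Of the upstream regulators of cyclooxygenase and phospholipase, 15 of 16 were tested, 4 were upregulated and 0 downregulated, with 0 downwards also at an unadjusted p under 0.05 and with DESeq2. Il1rn, the antagonist of the interleukin-1 receptor, rose from 0.441 ± 0.0251 to 1.24 ± 0.170 CPM, or 1.48 as log2FC (SE 0.19, adjusted p = 6.55e-05 from edgeR). Anxa1, an inhibitor of phospholipase A2 and the most abundant of the list, rose from 287 ± 2.90 to 359.8 ± 4.93 CPM, or 0.33 as log2FC (SE 0.03, adjusted p = 1.22e-06). Zfp36, which promotes decay of Ptgs2 and other AU-rich messenger RNAs, had a log2FC of 0.29 (adjusted p = 0.00418), and Nr3c1, the glucocorticoid receptor, 0.17 (adjusted p = 0.00219). Of the known inducers of Ptgs2, these 4 did not pass, with log2 fold changes of -0.16 for Il1b (adjusted p = 0.383), 0.53 for Tnf (adjusted p = 0.243), 0.01 for Rela (adjusted p = 0.938) and -0.01 for Nfkb1 (adjusted p = 0.866). They and the relatives of Nr4a1 were named after their values were seen.

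Markers of other cell types moved with genotype beside these genes. Of 20 macrophage markers 18 were upregulated and 0 downregulated in edgeR's test, with 0 downwards also at an unadjusted p under 0.05 and with DESeq2, and their summed level was 171 to 177 CPM in control and 343 to 395 CPM in cKO, with no marker at 0. The most abundant were Lyz2 (81.1 CPM in control, 184 in cKO) and Ctss (18.7 and 42.7 CPM). Ptgs2 divided by the summed macrophage list was 0.815, 0.799 and 0.818 in control and 0.912, 0.959 and 1.03 in cKO. Of the fibroblast and fibro-adipogenic markers 8 of 12 tested were upregulated, and their sum was 1271 to 1352 CPM in control and 1689 to 1857 CPM in cKO, led by Col1a2 and Col3a1. Endothelial markers (6 of 14 up, led by Eng and Flt1) summed to 38.4 to 40.4 CPM and 55.1 to 63.6 CPM. Smooth muscle and pericyte markers, led by Acta2 and Cspg4, had 8 of 10 up and 2 down, with sums of 3347 to 3401 CPM and 3613 to 3715 CPM. Mast cell and granulocyte markers were close to absent, with 7 of 11 at or under 3 counts in every sample, S100a9 at 0, Kit and Csf3r the most abundant and none tested. Of the satellite cell and myoblast markers 9 of 11 tested were downregulated, and their sum was 7372 to 7522 CPM in control and 6391 to 6926 CPM in cKO. The part of these cell types in the levels of Ptgs2, Pla2g4a, Ptges and the other genes was not tested.

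**Figure D5:**
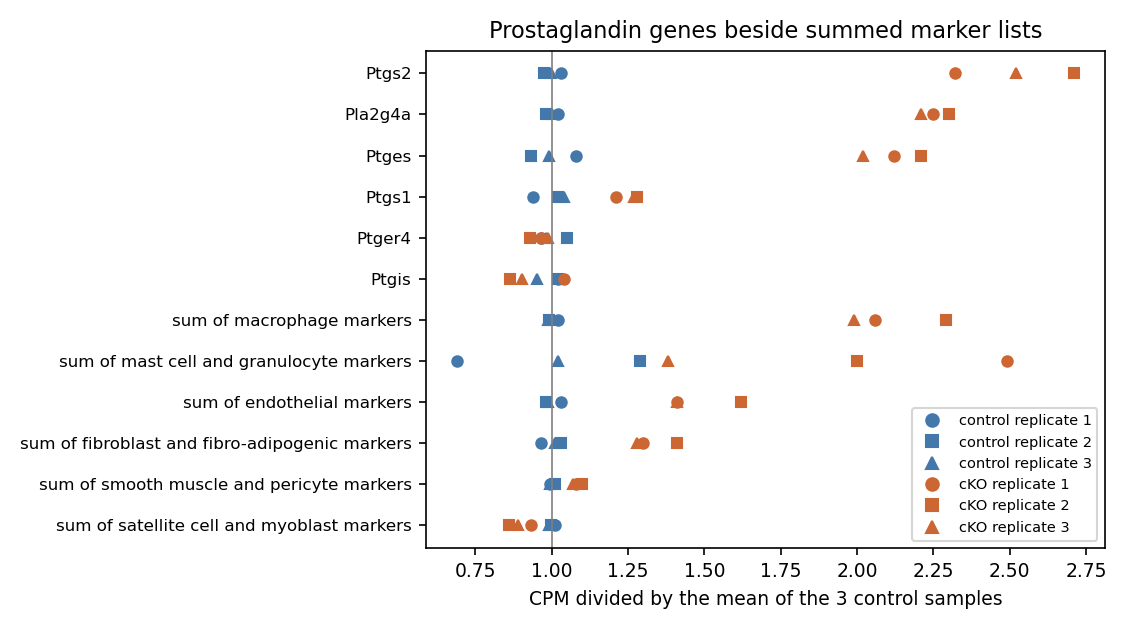
Level of 6 prostaglandin genes and of 6 summed marker lists in each sample, divided by the mean of the 3 control samples (1 on the horizontal axis), in control (blue) and cKO (orange), with the marker shape giving the replicate number. Ptgs2 reached 2.32 to 2.71 and Ptges 2.02 to 2.21 in cKO, beside 1.99 to 2.29 for the summed macrophage markers and 0.859 to 0.931 for the satellite cell and myoblast markers.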

How the data were processed

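RNA-seq libraries of 3 control and 3 cKO samples were measured. The deposited gene counts were made by the authors, whose processing notes name Bowtie2 2.3.4.2 and featureCounts 1.6.3 on mm10. Bowtie2 does not split reads over introns. The strand and multimapping settings are not given in the sources used here. The authors' normalized table and their DESeq2 2.11.40.6 comparison (mean, log2 fold change, standard error, statistic and p-value) were not used.

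Counts of 55536 genes, all found in GENCODE, were tested with edgeR 4.0.16 (R 4.3.3) by the quasi-likelihood test after filterByExpr and TMM scaling, with genotype as the only term and Benjamini-Hochberg adjustment over 22404 genes. Totals were 47944477 to 63323577 counts. The biological coefficient of variation was 3.92%, and counting error exceeds it below 651 counts. The fit was also run on simulated counts that gave every gene the same dispersion. The simulation did not copy the dispersion of each gene, so nothing is read from it about the calls. DESeq2 1.42.0, other scalings, no filter, a replicate block, a threshold of 0.01, transcript length and leaving out each sample were tried as alternatives.

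The genes and lists were chosen with earlier results of these data known. In each pathway list all called genes (above 5, the 5 largest by absolute log2 fold change) were named, with the most abundant one by CPM and relatives of the 10 genes. In the marker lists the 2 most abundant by CPM and those at 0 were named. The Ptgs2 neighbours and the motifs were chosen after values were seen. Dpep2 has 2 identifiers, of which the one with more counts was used. Start regions are RefSeq's for GRCm38.p6.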

Additional observations from a re-analysis of the deposited data

How the results depend on the processing

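The upward calls among the prostaglandin genes numbered 4 with DESeq2, with both other scalings, without the filter, with the block and without each sample, and the downward count was 0 to 1 when single samples were left out, the 1 being Ptgis without cKO replicate 1. These genes were listed with the contrast known, so nothing is read from these counts or from their stability. Leaving out single samples gave 1571 to 2214 genes up and 917 to 1673 down over all genes (2101 and 1448 with all samples), with 917, 934 and 960 down without control replicates 1, 2 and 3. For the pathway genes it gave 15 to 21 up and 6 to 10 down, and at an adjusted p under 0.01 the downward count was 5 rather than 8. The log2 fold change of Hira was between -0.52 and -0.29, and without control replicate 1 it was -0.34 and did not pass (adjusted p = 0.104 from edgeR). Per length of the longest annotated transcript, the ratio of Ptgs2 to Ptgs1 in control was 10.4 rather than 13.7. The direction turned for Ptger1 without control replicate 1 (-0.06, within -0.06 to 0.38), for Tbxa2r without control replicate 1 (-0.16, within a range of -0.16 to 0.59 over the samples left out) and for Alox5 with total counts (0.0008), none of which passed the test in these settings. Dpep1 passed without the filter on low counts (adjusted p = 0.00584 from edgeR), and Adcy2 did not with total counts (0.0752). The cause of these changes was not tested. Same-numbered samples did not deviate together (correlations of -0.013, -0.0045 and -0.015). With 3 samples per group this cannot show whether same-numbered samples were handled as pairs. A replicate block gave 1901 genes up and 1251 down, with 18 and 8 pathway genes. Depth limits Ptger1, Ptger2, Ptger3 and Hpgd, which had at most 46 counts in any sample.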
